A study of Mus musculus with 3 samples.

Results

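Krt8-high cells are the cells of metastasis-bearing mouse brains that the authors' clustering placed in cluster 0 and whose barcodes do not also occur in the data of the naive brains. They numbered 2732 of 11179 cells used from 8 brains, and of 8443 cells from the 4 metastasis-bearing brains. The brains came from female C57Bl/6 mice of 2 to 3 months, and the metastasis-bearing ones had received E0771 cells, a mouse mammary carcinoma line, by carotid injection about 2 weeks before. The groups compared were 2 Cx3cr1-/- (homozygous) brains and 2 Cx3cr1+/- (heterozygous) brains, all with metastases, and 4 naive brains of both genotypes served as a background. Every mouse carried at least 1 disrupted Cx3cr1 allele, so no wild type was set against these groups. Each brain contributed 1 hemisphere, from which immune cells were enriched on a Percoll gradient, so that a share of cells describes the enriched suspension and not the brain. All 8 suspensions were stained with 35 surface antibodies, marked with a hashtag antibody each, and run as 1 pool on a droplet platform that counts RNA from the 3 prime end.

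Krt8 encodes a keratin of simple epithelia, which normally pairs with the product of Krt18 in filaments, and both genes are used as marks of luminal mammary epithelium and of carcinomas derived from it. Carcinoma cells can lose epithelial genes and gain mesenchymal ones such as Vim, a state often called epithelial to mesenchymal transition. Tumour cells also respond to interferons, the cytokines that raise antiviral genes and antigen presentation. Cx3cr1, the receptor for the chemokine fractalkine, is carried in the brain mainly by microglia, the resident macrophages.

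The hashtag sequence assigned each cell to its brain, and the 4 barcodes of the metastasis-bearing brains are shown because each comparison of genotypes rests on them.
Cx3cr1-/- brain 1: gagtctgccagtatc
Cx3cr1-/- brain 2: tatagaacgccaggc
Cx3cr1+/- brain 1: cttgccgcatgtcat
Cx3cr1+/- brain 2: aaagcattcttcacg
Any 2 of these 4 barcodes, each of 15 bases, differed at 10 to 13 positions, over 6 pairs. Krt8-high cells had a median of 542.5 hashtag UMIs (molecules counted by their barcode) per cell, with a 10th percentile of 201, against medians of 2072 in the T-like and 224 in the microglia-like cluster. The hashtag margin, the authors' score for the lead of the first hashtag over the second, had a median of 2.20 in Krt8-high cells. It was 3.48 in the T-like and 2.39 in the microglia-like cluster. By brain the median in Krt8-high cells was 1.90 and 2.87 in Cx3cr1-/- brains, against 3.58 and 2.33 in Cx3cr1+/- brains.

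Krt8-high cells stood apart in depth. Their median was 103002 raw RNA UMIs and 7890.5 detected genes per cell, and the 10th and 90th percentiles were 67773 and 160826 UMIs. The median was 12032.5 raw UMIs in the monocyte/macrophage-like cluster and 5409 in the T-like cluster. By brain the median was 103075 and 96635 raw UMIs in Cx3cr1-/- brains, against 107612 and 116929 in Cx3cr1+/- brains (exact permutation test, two-sided, p = 0.333, the smallest that 2 brains against 2 allow). Detected genes had medians of 7866 and 7787 in Cx3cr1-/- brains, against 8035 and 8190 in Cx3cr1+/- brains. The depth correction in the deposited values brought the cells to a median of 12491 corrected UMIs, so a gene listed at 0 in a cell may still have had raw UMIs. A small minority of 33 cells had under 20000 raw UMIs, which was 0.614 and 1.37% of Krt8-high cells in Cx3cr1-/- brains and 3.03 and 3.23% in Cx3cr1+/- brains.

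None of the 2732 cells carried one of the authors' antibody gates, whereas 1115 of 1201 T-like and 650 of 654 microglia-like cells did. A gate does not mark a cell as immune, because 451 of 454 vascular-like cells also carried one. Of the 37 choroid plexus-like cells, 0 did. The antibody library still gave reads for Krt8-high cells. The median was 2563 and 2698 antibody UMIs per cell in Cx3cr1-/- brains, against 3370 and 2647 in Cx3cr1+/- brains, and the genotypes overlapped (exact permutation test, two-sided, p = 0.667). Leukocyte transcripts were scarce: the summed level of Ptprc, Laptm5, Coro1a and Cd53 was 4.74 and 5.85 CPM in Cx3cr1-/- brains and 7.58 and 25.1 CPM in Cx3cr1+/- brains, where CPM is corrected UMIs summed over the cells of a brain and scaled to a total of 1000000. The same sum was 3322 CPM in the monocyte/macrophage-like cluster. Ptprc, the gene of the leukocyte antigen CD45, had a corrected UMI in 1.54% of Krt8-high cells, against 98.2% of T-like cells.

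Krt8 had 551 and 508 CPM in Cx3cr1-/- brains, against 626 and 551 CPM in Cx3cr1+/- brains. Rhox5, an X-linked homeobox gene of the reproductive tract, had 868 and 817 CPM in Cx3cr1-/- brains, against 783 and 863 CPM in Cx3cr1+/- brains. Wfdc2, which encodes a secreted protein of epithelia and carcinomas, had 721 and 716 CPM in Cx3cr1-/- brains, against 616 and 779 CPM in Cx3cr1+/- brains. In all 3 the genotypes overlapped and the 4 brains lay close together. Akr1b8, an aldo-keto reductase that handles reactive aldehydes, ran at 175 and 191 CPM in Cx3cr1-/- brains and at 186 and 189 CPM in Cx3cr1+/- brains. Lgals7, a galectin of stratified epithelia, was the marker that varied most between brains, with 59.2 and 88.3 CPM in Cx3cr1-/- brains and 75.5 and 21.5 CPM in Cx3cr1+/- brains. Heterozygous brain 2 stood below the other 3 there. Because the clustering used these genes, the following levels in other cells are descriptions without a test.

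Krt8 averaged 559 CPM in Krt8-high cells over the 4 brains, against at most 103 CPM in any of clusters 1 to 8. The markers were not particular to cluster 0: cluster 9, of 7 cells with a median of 99766 raw UMIs, averaged 550 CPM of Krt8, 798 CPM of Wfdc2 and 707 CPM of Rhox5 over the 2 brains that had such cells. Krt8 averaged 142 CPM in the choroid plexus-like cluster. A corrected UMI of Krt8 was found in 98.9% of Krt8-high cells, and also in 35.3% of T-like and 11.01% of microglia-like cells, types that should lack the gene. Those 2 types had medians of 5409 and 8470 raw UMIs, which the depth correction raised to 11616 and 11498 corrected UMIs. In Krt8-high cells it lowered the median from 103002 to 12491, so these shares do not rest on the counts as sequenced. Rhox5 was present in 99.7% of Krt8-high and 66.1% of T-like cells, and Wfdc2 in 93.0% and 46.5%. Akr1b8 and Lgals7 separated the cells with less background: Akr1b8 was present in 78.7% of Krt8-high and 2.66% of T-like cells, and Lgals7 in 26.1% and 1.83%.

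**Figure D1:**
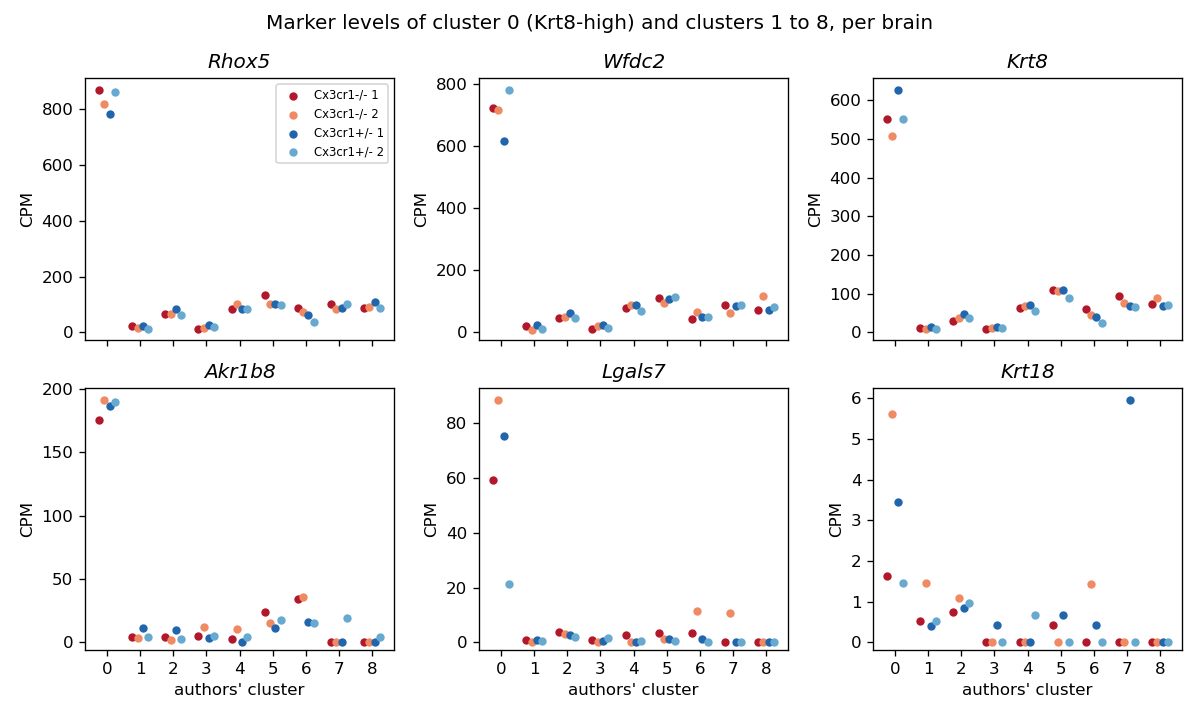
Levels (CPM of corrected UMIs, linear axes) of the 5 given markers and of Krt18 in the authors' clusters 0 to 8, with 1 point for each brain and homozygous brains left of heterozygous ones. Krt8, Rhox5 and Wfdc2 lie between 508 and 868 CPM in cluster 0 in all 4 brains, while Krt18 stays between 1.46 and 5.60 CPM there.

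Most other epithelial genes were close to 0. Of the 28 genes of a list of keratins and epithelial genes found in the table, 6 were above 10 CPM, namely Krt8, Wfdc2, Lgals7, Spint2, St14 and Pkp3. Krt18, which lies beside Krt8 on chromosome 15 (Krt8 at chr15:101996711-102004342 and Krt18 at chr15:102028216-102032026 in GRCm38.p6), had 1.63 and 5.60 CPM in Cx3cr1-/- brains and 3.45 and 1.46 CPM in Cx3cr1+/- brains. It was seen in 2.12% of Krt8-high cells. The table did measure Krt18 elsewhere, with a mean of 383 CPM in the choroid plexus-like cluster of 37 cells, the brain's own epithelium. Epcam, an epithelial adhesion molecule, had 0.839 and 0.609 CPM in Cx3cr1-/- brains and 1.03 and 1.09 CPM in Cx3cr1+/- brains, and Cdh1, which encodes E-cadherin, had 0.296 and 0.609 CPM in Cx3cr1-/- brains and was listed at 0 in both Cx3cr1+/- brains. The label tumour-like therefore rests on Krt8, Wfdc2 and the other given markers, and the defining epithelial markers Krt18, Epcam and Cdh1 were at or near 0.

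Mesenchymal genes were present instead. Of 28 such genes 18 were above 10 CPM, and the summed level of the list was 15004 and 14907 CPM in Cx3cr1-/- brains, against 15469 and 12012 CPM in Cx3cr1+/- brains. Vim, the intermediate filament vimentin, had 3863 and 3680 CPM in Cx3cr1-/- brains and 3948 and 2971 CPM in Cx3cr1+/- brains, and the highest mean of clusters 1 to 8 was 2986 CPM. Twist1, a transcription factor of the mesenchymal programme, averaged 89.0 CPM, against at most 43.6 CPM elsewhere. Markers of fibroblasts summed to 13.7 and 4.14 CPM in Cx3cr1-/- brains and 7.24 and 1.82 CPM in Cx3cr1+/- brains, and those of endothelial cells to 6.37 and 9.38 CPM in Cx3cr1-/- brains and 5.17 and 10.9 CPM in Cx3cr1+/- brains. No endothelial or fibroblast marker passed 10 CPM.

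The 20 genes with the highest ratio to the mean of clusters 1 to 8, among 1549 genes above 100 CPM, are described by what each is known to do. Hist1h2ap, Tpx2, Hist1h1b, Ccna2, Cenpf, Hmmr and Cdca3 act in DNA replication, chromatin assembly or mitosis. Rhox5 and Tex19.1 are genes of the germline or reproductive tract, Sox9 is a transcription factor of progenitor cells, Dusp9 is a phosphatase of the MAP kinases, Cda is cytidine deaminase and Tubb3 is a tubulin best known from neurons. Wfdc2, Krt8, Akr1b8, Pcolce2, Fkbp11, Gm364 and 4930550L24Rik complete the 20. Of the 18 that matched RefSeq, 4 lie on chromosome X, against 2.91% of the 1512 matched genes above 100 CPM. The 20th gene, Tubb3, had a log2 ratio of 3.08, and the 21st lay just below the limit with the same rounded value.

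Levels of the leading genes in single brains are given for the germline and progenitor genes. Tex19.1, which acts against retroelements in germ cells and placenta, had 126 and 122 CPM in Cx3cr1-/- brains, against 109 and 140 CPM in Cx3cr1+/- brains. Sox9 had 269 and 300.2 CPM in Cx3cr1-/- brains, against 250.6 and 199 CPM in Cx3cr1+/- brains. Tex19.1 overlapped between the genotypes, and Sox9 was higher in both Cx3cr1-/- brains without passing the test (log2 fold change 0.33, SE 0.13, limma adjusted p = 0.787). Dppa4, a gene of pluripotent cells, averaged 44.5 CPM and at most 8.76 CPM in another cluster.

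At the other end, several genes that nearly all other cells use were scarce. Xist, the RNA that coats the inactive X chromosome of female cells, had 1.18 and 2.32 CPM in Cx3cr1-/- brains and 3.79 and 3.64 CPM in Cx3cr1+/- brains, whereas clusters 1 to 8 averaged 718 CPM. Tmsb4x, the X-linked gene of the actin-binding peptide thymosin beta 4, was seen in 13.0% of Krt8-high cells and in all 1201 T-like and all 654 microglia-like cells. Cx3cr1 had 2.42 and 1.34 CPM in Cx3cr1-/- brains and 2.76 and 2.92 CPM in Cx3cr1+/- brains. The microglia-like cluster had 114 and 31.6 CPM of Cx3cr1 in Cx3cr1-/- brains, against 1363 and 1464 CPM in Cx3cr1+/- brains. Cx3cr1 was also low in the T-like cluster, with a mean of 5.91 CPM. In Krt8-high cells its ligand gene Cx3cl1 had 1.73 and 1.22 CPM in Cx3cr1-/- brains and 1.72 and 1.82 CPM in Cx3cr1+/- brains. Neither gene reached the 10 CPM there that a test required. A row named mCherry had 4.79 and 3.90 CPM in Cx3cr1-/- brains and 5.51 and 9.84 CPM in Cx3cr1+/- brains. It was present in 5.56% of Krt8-high cells (4.03% when thinned to 9000 corrected UMIs) and in 0 of 1201 T-like cells, which allows a share of cells with a UMI of up to 0.307% there (upper exact Clopper-Pearson limit at 95%, for counting error only). The T-like cells were much shallower, and at this level their depth limits what a 0 shows. Cluster 5 also held mCherry UMIs, with 4.24 and 4.19 CPM in Cx3cr1-/- brains and 0.683 and 0.963 CPM in Cx3cr1+/- brains.

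Cx3cr1-/- brains held a larger share of Krt8-high cells. They made up 55.7% (1629 of 2925 cells, 95% Wilson interval 53.9 to 57.5) and 42.1% (655 of 1554 cells, 39.7 to 44.6) of the cells of the 2 Cx3cr1-/- brains. In the Cx3cr1+/- brains they made up 17.1% (231 of 1354 cells, 15.2 to 19.2) and 8.31% (217 of 2610 cells, 7.32 to 9.44). The means were 48.9 ± 9.58% in Cx3cr1-/- and 12.7 ± 6.18% in Cx3cr1+/- brains (SD, n = 2 each), and the groups did not overlap. The two-sided exact permutation test gave p = 0.333, which is the smallest value this design allows, so the difference of 36.2 percentage points could not pass the threshold. The intervals cover counting error only, and a share can also move with the number of other cells recovered.

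**Figure D2:**
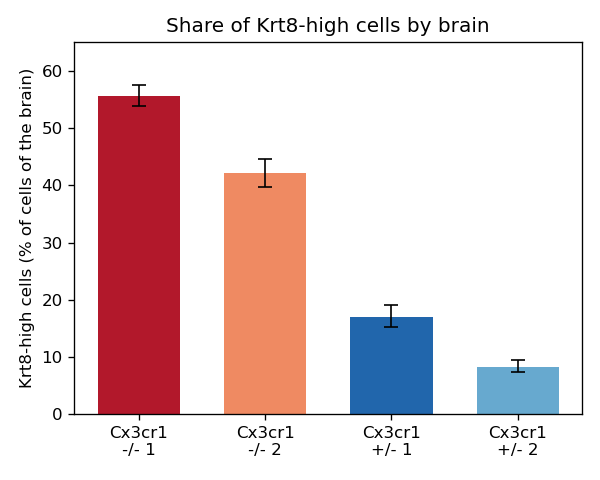
Krt8-high cells as a percentage of all cells used from each metastasis-bearing brain. Bars show the 4 brains (Cx3cr1-/- left, Cx3cr1+/- right) and error bars the 95% Wilson interval for counting error; both Cx3cr1-/- brains (55.7 and 42.1%) lie above both Cx3cr1+/- brains (17.1 and 8.31%).

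In the comparison of expression between genotypes within Krt8-high cells, 2 of 8011 genes passed an adjusted p of 0.05 in limma (0.025% of the genes tested), and both fell: Mgp and Tmsb4x. None rose. At an unadjusted p under 0.05 there were 486 genes, or 6.07% (2.76% higher and 3.31% lower in Cx3cr1-/- brains), and for 38.7% of the genes the 2 Cx3cr1-/- brains did not overlap the 2 Cx3cr1+/- brains. The log2 fold change was positive for 42.7% of the genes. Expression of the marker genes given above did not pass the test in either direction. The log2 fold changes (Cx3cr1-/- minus Cx3cr1+/-, of CPM plus 10) were -0.15 for Krt8, 0.03 for Rhox5, 0.05 for Wfdc2, -0.04 for Akr1b8 and 0.67 for Lgals7, with standard errors of 0.10, 0.09, 0.12, 0.11 and 0.39.

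Tmsb4x had 49.7 and 39.6 CPM in Cx3cr1-/- brains, against 180 and 250 CPM in Cx3cr1+/- brains (log2 fold change -2.03, SE 0.17, limma adjusted p = 0.00563). Mgp, which encodes matrix Gla protein, an inhibitor of calcification made by vascular and mesenchymal cells, had 1.68 and 1.34 CPM in Cx3cr1-/- brains, against 21.7 and 20.04 CPM in Cx3cr1+/- brains (log2 fold change -1.42, SE 0.11, limma adjusted p = 0.00563). Mgp passed the filter of a mean above 10 CPM only through the Cx3cr1+/- brains, where it was high, so its call is no independent support. A single cell held 61 of the 63 corrected Mgp UMIs of heterozygous brain 1, and another held 46 of the 55 of heterozygous brain 2. The 7 cells under 20000 raw UMIs in each Cx3cr1+/- brain held 86.8 and 70.1% of the Tmsb4x UMIs there, against 20.7 and 14.2% in such cells of the Cx3cr1-/- brains. Tmsb4x is abundant in leukocytes, and 2.09 and 3.97% of Krt8-high cells in Cx3cr1-/- brains and 4.33 and 9.68% in Cx3cr1+/- brains had a UMI of 1 of 5 leukocyte genes. With those cells left out no gene was called, and the part of leukocyte RNA in the result was not tested further. In the 2699 cells of at least 20000 raw UMIs, a limit set after the data were seen, Tmsb4x had 39.6 and 34.4 CPM in Cx3cr1-/- brains and 24.5 and 76.9 CPM in Cx3cr1+/- brains, and the genotypes overlapped (adjusted p = 0.889). Mgp had 1.59 and 1.36 CPM in Cx3cr1-/- brains and 0.355 and 1.88 CPM in Cx3cr1+/- brains there, too low to be tested. No gene passed among the 8008 tested in those cells (0% of the genes tested, against 506, or 6.32%, at an unadjusted p under 0.05, 2.71% higher and 3.61% lower in Cx3cr1-/- brains).

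The other 8 genes with the smallest p did not pass the adjusted threshold. Acta2, smooth muscle actin, had 38.1 and 28.9 CPM in Cx3cr1-/- brains, against 8.27 and 9.84 CPM in Cx3cr1+/- brains (log2 fold change 1.18, SE 0.15, limma adjusted p = 0.0827). It passed the filter of a mean above 10 CPM only through the Cx3cr1-/- brains, where it was high. In the cells of at least 20000 raw UMIs it had 38.3 and 28.9 CPM in Cx3cr1-/- brains and 7.10 and 10.1 CPM in Cx3cr1+/- brains (adjusted p = 0.212). A UMI of it was found in 14.2 and 10.99% of these cells in Cx3cr1-/- brains and in 5.80 and 7.62% in Cx3cr1+/- brains. Over all cells, no single cell held more than 20.8% of the Acta2 UMIs of its brain. Acta2 is also made by mural cells of vessels, whose markers summed to 25.2 and 34.0 CPM in Cx3cr1-/- brains and 18.96 and 19.3 CPM in Cx3cr1+/- brains. Only 1 of the 4 markers, Pdgfrb, was above 10 CPM. It made up most of the sum in each brain, so the sum mainly describes that gene. The part of mural cells in the result was not tested. Srgn, a proteoglycan core protein of leukocyte granules, had 4.49 and 5.97 CPM in Cx3cr1-/- brains, against 27.6 and 17.5 CPM in Cx3cr1+/- brains (adjusted p = 0.240), and cells under 20000 raw UMIs held 97.5 and 37.5% of its UMIs in the Cx3cr1+/- brains. Srgn passed the same filter only through the Cx3cr1+/- brains, where it was high. Selenbp1, a selenium-binding protein, had 45.1 and 30.8 CPM in Cx3cr1-/- brains and 15.2 and 12.03 CPM in Cx3cr1+/- brains (adjusted p = 0.310). C2, a complement component, had 30.5 and 31.4 CPM in Cx3cr1-/- brains and 12.4 and 15.3 CPM in Cx3cr1+/- brains (adjusted p = 0.310). The remaining 4 of the 10 genes with the smallest p, Oas1a, Ifi35, Ifi44 and Lgals3bp, are known as interferon-induced and are described below.

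The number of calls depended on single brains. Leaving out homozygous brain 1 or 2 gave 20 or 12 genes, and leaving out heterozygous brain 1 or 2 gave 2024 or 173, fits in which the lone brain of a genotype is assumed to vary like the other pair. In the cells of at least 20000 raw UMIs the same 4 fits called 2, 3, 2403 and 389 genes. Of the 2 genes called over all 4 brains, Tmsb4x had log2 fold changes of -2.26 to -1.81 over the 4 fits of all cells. Mgp had -1.44 and -1.40 without homozygous brain 1 or 2. With either heterozygous brain left out Mgp fell below the level filter and was not tested.

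**Figure D3:**
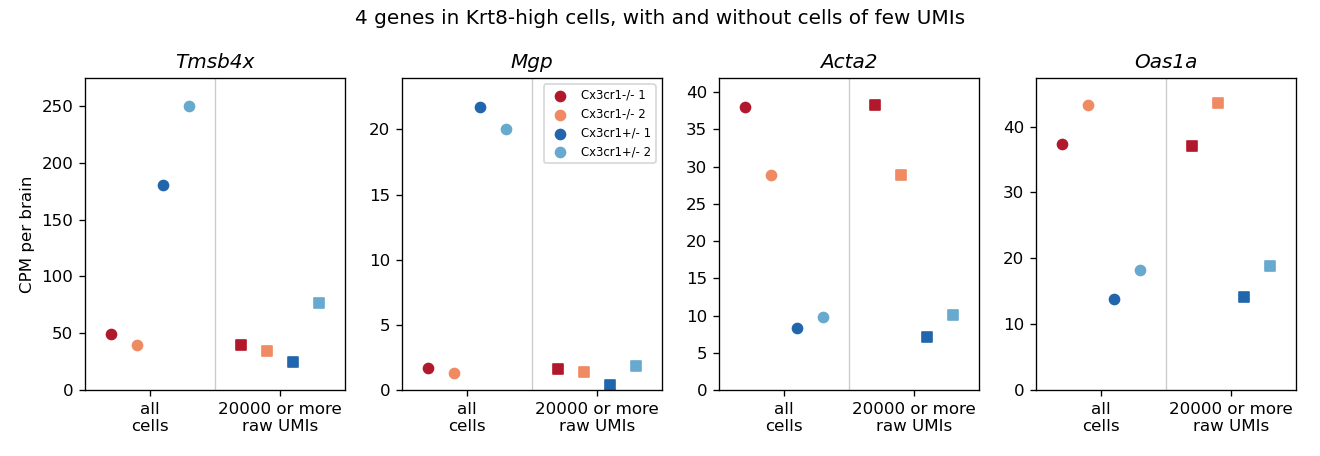
Levels (CPM, linear axes from 0) of Tmsb4x, Mgp, Acta2 and Oas1a in Krt8-high cells of each brain, Cx3cr1-/- left of Cx3cr1+/-, over all cells (circles) and over cells of at least 20000 raw UMIs (squares). Tmsb4x and Mgp separate the genotypes only over all cells of these 2 sets, and Acta2 and Oas1a separate them in both.

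Interferon-stimulated genes were the list with the highest median difference among the 21 lists examined. The difference was positive in 31 of the 39 members that passed the level filter, of 48 in the table, and 22 were higher in both Cx3cr1-/- brains than in both Cx3cr1+/- brains, against 14.8% of all genes tested. None of the 39 passed the adjusted threshold, and 21 had an unadjusted p under 0.05 in the upward direction, against 2.76% of all genes. The median log2 fold change of the list was 0.46, with an SD of 0.26 between brains of the same genotype, beside -0.03 for all genes tested. In cells of at least 20000 raw UMIs the median was 0.44, with 31 of 39 positive, against 41% of all genes, and 20 higher without overlap, against 13.9% of all genes (25.3% were lower without overlap). Over the 4 fits that each left out a brain it lay between 0.26 and 0.59.

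Oas1a, which senses double-stranded RNA, had 37.4 and 43.3 CPM in Cx3cr1-/- brains, against 13.8 and 18.2 CPM in Cx3cr1+/- brains (log2 fold change 0.95, SE 0.15, limma adjusted p = 0.240). Ifi35 had 102 and 122 CPM in Cx3cr1-/- brains, against 56.5 and 61.9 CPM in Cx3cr1+/- brains (log2 fold change 0.81, SE 0.14, adjusted p = 0.310). Ifi44 had 88.0 and 89.7 CPM in Cx3cr1-/- brains, against 31.0 and 49.2 CPM in Cx3cr1+/- brains (log2 fold change 1.00, SE 0.18, adjusted p = 0.345). Each had both Cx3cr1-/- brains above both Cx3cr1+/- brains. Lgals3bp, a secreted galectin ligand, had 72.6 and 102 CPM in Cx3cr1-/- brains and 41.4 and 41.9 CPM in Cx3cr1+/- brains (adjusted p = 0.376). Isg15, a ubiquitin-like modifier, had 231 and 357 CPM in Cx3cr1-/- brains and 164 and 176 CPM in Cx3cr1+/- brains (adjusted p = 0.746). Bst2, or tetherin, which holds budding virus at the cell surface, had 1288 and 1617 CPM in Cx3cr1-/- brains and 837 and 1006 CPM in Cx3cr1+/- brains (adjusted p = 0.476).

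Some members ran the other way, and 3 of the 8 with a negative difference are named here, chosen after their values were seen. Gbp2, a guanylate-binding protein known as a target of interferon gamma, had 23.1 and 25.6 CPM in Cx3cr1-/- brains, against 19.6 and 86.7 CPM in Cx3cr1+/- brains. Igtp, an immunity-related GTPase, had 15.9 and 16.1 CPM in Cx3cr1-/- brains, against 8.62 and 68.5 CPM in Cx3cr1+/- brains, and Irf1, an interferon-induced transcription factor, had 18.95 and 20.1 CPM in Cx3cr1-/- brains and 14.1 and 57.2 CPM in Cx3cr1+/- brains. In these genes heterozygous brain 2 stood above the other 3, the genotypes overlapped, and the adjusted p was 0.793 for Gbp2, 0.820 for Igtp and 0.807 for Irf1. Cxcl10, a chemokine that draws T cells through the receptor Cxcr3, had 31.7 and 87.4 CPM in Cx3cr1-/- brains and 42.7 and 50.3 CPM in Cx3cr1+/- brains (log2 fold change 0.18, SE 0.32, adjusted p = 0.905). Cd274, the gene of PD-L1, had 1.63 and 2.92 CPM in Cx3cr1-/- brains and 3.102 and 5.47 CPM in Cx3cr1+/- brains. Vsir, the gene of VISTA, had 1.18 and 2.44 CPM in Cx3cr1-/- brains and 1.72 and 0.364 CPM in Cx3cr1+/- brains, and both checkpoint genes were below the level that was tested.

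The summed level of the interferon list was 4457 and 5505 CPM in Krt8-high cells of Cx3cr1-/- brains, against 2905 and 4022 CPM in those of Cx3cr1+/- brains. In 7 of the 8 other clusters both Cx3cr1-/- brains were also above both Cx3cr1+/- brains. The microglia-like cluster had 8138 and 7953 CPM in Cx3cr1-/- brains and 3688 and 5186 CPM in Cx3cr1+/- brains. The difference between Krt8-high cells and those clusters was not tested, nor was the part that free RNA from other cells has in the levels.

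**Figure D4:**
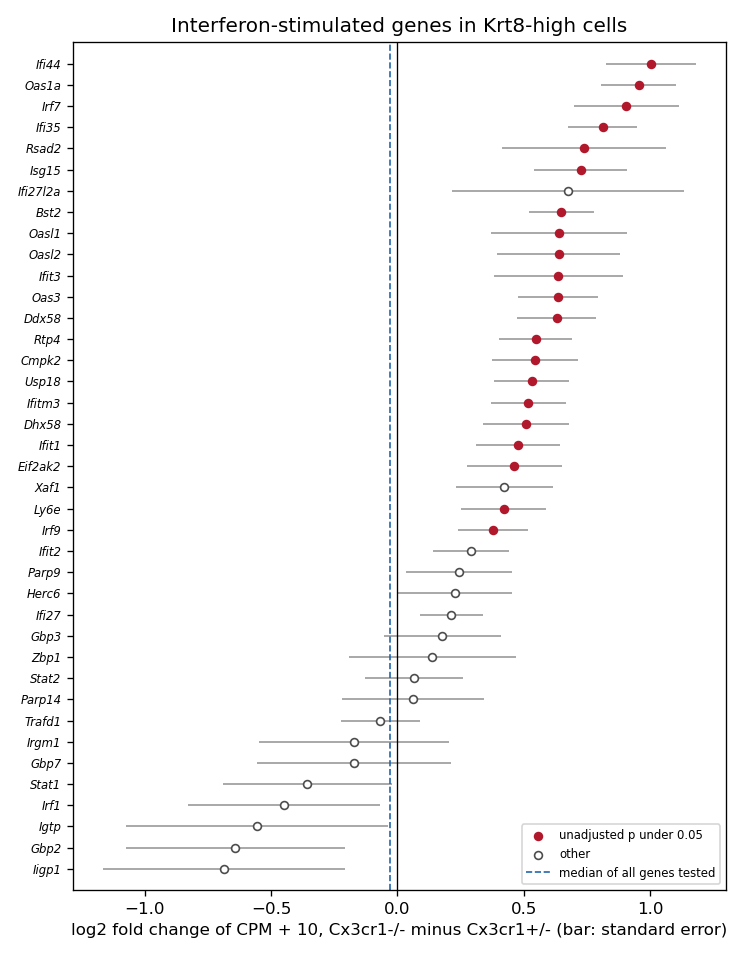
Log2 fold changes (Cx3cr1-/- minus Cx3cr1+/-, of CPM plus 10; bars are standard errors of the limma fit on 2 against 2 brains) of the 39 tested interferon-stimulated genes in Krt8-high cells. The 21 filled points have an unadjusted p under 0.05, none passed after adjustment, and 31 of 39 lie above 0, while the dashed line marks the median of all genes at -0.03.

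Interferon-stimulated genes carry a response element, a repeat of the letters GAAA spaced by 2 bases, which is bound by the interferon-activated factor complex. The motif GAAANNGAAA was searched on both strands in the RefSeq promoter windows of GRCm38.p6, from 250 bases before to 50 after each start, and overlapping matches were counted. It was in 3.44% of all 32851 windows and in a window of 3.62% of the 6359 tested genes that had one. Of 28 tested interferon-stimulated genes with a window 16 held it. Their median log2 fold change was 0.50, and that of the 12 genes without a match was 0.48, close to each other. The 150 bases before the start are shown for 4 of the genes with a match, with each match in capitals. They include Oas1a, which had the smallest p of the interferon list. Ifit1 is also shown, the gene above 100 CPM that varied most between cells of at least 20000 raw UMIs.
Isg15: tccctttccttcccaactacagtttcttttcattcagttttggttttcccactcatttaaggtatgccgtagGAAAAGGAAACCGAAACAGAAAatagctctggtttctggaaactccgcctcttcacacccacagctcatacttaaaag
Oas1a: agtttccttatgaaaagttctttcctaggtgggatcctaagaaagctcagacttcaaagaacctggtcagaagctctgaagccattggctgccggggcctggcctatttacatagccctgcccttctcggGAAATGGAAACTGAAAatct
Bst2: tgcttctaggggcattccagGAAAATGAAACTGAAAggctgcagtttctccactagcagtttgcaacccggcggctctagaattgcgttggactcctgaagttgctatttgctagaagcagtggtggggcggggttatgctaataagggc
Ifit1: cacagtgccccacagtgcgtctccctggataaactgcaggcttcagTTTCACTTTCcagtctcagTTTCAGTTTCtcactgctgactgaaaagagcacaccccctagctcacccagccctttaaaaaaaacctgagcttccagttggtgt
These are Isg15 at chr4:156200819-156200968 on the minus strand, Oas1a at chr5:120907526-120907675 on the minus strand, Bst2 at chr8:71537473-71537622 on the minus strand and Ifit1 at chr19:34640739-34640888 on the plus strand. Isg15 held 3 overlapping matches from 78 to 57 bases before its start, and Oas1a and Bst2 held 2 overlapping matches each. Ifit1 held 2 separate matches, read on the opposite strand as TTTCACTTTC and TTTCAGTTTC. A match is a description of these letters and not of a bound site.

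In class I antigen presentation 9 of 17 tested genes were higher in mean in Cx3cr1-/- brains, 6 did not overlap and were higher in Cx3cr1-/- brains, against 14.8% of all genes, and the median was 0.05 (0.14 in cells of at least 20000 raw UMIs). H2-D1, a class I heavy chain, had 1260 and 1287 CPM in Cx3cr1-/- brains, against 1056 and 1034 CPM in Cx3cr1+/- brains (log2 fold change 0.28, SE 0.08, limma adjusted p = 0.787). B2m, its light chain, had 799 and 815 CPM in Cx3cr1-/- brains, against 605 and 685 CPM in Cx3cr1+/- brains (log2 fold change 0.32, SE 0.10, adjusted p = 0.787). Genes of class II presentation were at the edge of detection, with Cd74, the invariant chain, at 6.71 and 6.82 CPM in Cx3cr1-/- brains and 2.76 and 27.3 CPM in Cx3cr1+/- brains.

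S phase genes had mostly negative differences. Of 28 S phase genes 27 had a negative log2 fold change (median -0.16), 17 were lower in both Cx3cr1-/- brains than in both Cx3cr1+/- brains, against 23.9% of all genes, and none passed. Rrm2, a ribonucleotide reductase subunit, had 128 and 126 CPM in Cx3cr1-/- brains, against 148 and 166 CPM in Cx3cr1+/- brains, and Dtl, which marks licensing factors for destruction, had 49.6 and 54.3 CPM in Cx3cr1-/- brains and 63.4 and 65.6 CPM in Cx3cr1+/- brains. Of 32 G2 and M phase genes 28 were negative (median -0.20, SD between brains of the same genotype 0.20), and 9 were lower without overlap, a share close to the 23.9% of all genes. Ccna2, or cyclin A2, had 188 and 172 CPM in Cx3cr1-/- brains, against 214 and 253 CPM in Cx3cr1+/- brains. With heterozygous brain 1 left out the median of the G2 and M list was -0.40, and with heterozygous brain 2 left out it was 0.01, so the negative median rests on that brain. Within brains Spearman's rho between the G2 and M sum and raw UMIs was 0.28 to 0.40, a description over cells that share a library, and median depth was higher in both Cx3cr1+/- brains. In cells of 50000 to 150000 raw UMIs the median was -0.24 for the G2 and M list and -0.20 for the S phase list. Depth can still differ between the genotypes within that range, and its part in these differences was not tested.

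For glycolysis and hypoxia genes the median difference was 0.16 on the log2 scale, with 23 of 30 positive and 13 higher in both Cx3cr1-/- brains without overlap, against 14.8% of all genes. Adm, the hypoxia-induced vasodilator adrenomedullin, had 153 and 152 CPM in Cx3cr1-/- brains, against 106 and 90.7 CPM in Cx3cr1+/- brains (log2 fold change 0.59, SE 0.12, limma adjusted p = 0.550). Ankrd37 had 27.3 and 33.4 CPM in Cx3cr1-/- brains, against 16.5 and 14.2 CPM in Cx3cr1+/- brains (adjusted p = 0.550). Of 12 tested mitochondrially encoded genes 10 were negative and 9 were lower without overlap, against 23.9% of all genes (median -0.25). mt-Nd1, a subunit of respiratory complex I, had 574 and 649 CPM in Cx3cr1-/- brains, against 825 and 964 CPM in Cx3cr1+/- brains (adjusted p = 0.476), and mt-Nd4 had 906 and 983 CPM in Cx3cr1-/- brains and 1226 and 1212 CPM in Cx3cr1+/- brains. Of 30 nuclear respiratory chain genes 26 were negative, with a median of -0.08, and Atp5k had 152 and 157 CPM in Cx3cr1-/- brains and 174 and 214 CPM in Cx3cr1+/- brains. Cholesterol synthesis genes were negative in 22 of 23 (median -0.14), and 12 were lower without overlap, against 23.9% of all genes. Pmvk, a mevalonate pathway kinase, had 125 and 126 CPM in Cx3cr1-/- brains, against 171 and 152 CPM in Cx3cr1+/- brains. None of these 4 lists had a member past the adjusted threshold.

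Signals that tumour cells send were also set side by side. Spp1, the secreted adhesion protein osteopontin, had 31.4 and 16.2 CPM in Cx3cr1-/- brains, against 124 and 45.6 CPM in Cx3cr1+/- brains (log2 fold change -1.39, SE 0.37, limma adjusted p = 0.787). Hbegf, a ligand of the epidermal growth factor receptor that is on the list of brain metastasis mediators, had 47.3 and 49.6 CPM in Cx3cr1-/- brains, against 71.0 and 72.2 CPM in Cx3cr1+/- brains (log2 fold change -0.48, SE 0.13, adjusted p = 0.787). Ccl2, a chemokine that draws monocytes, had 195 and 159 CPM in Cx3cr1-/- brains, against 222 and 376 CPM in Cx3cr1+/- brains (adjusted p = 0.787). None of these 3 overlapped between the genotypes, and 4 of 16 tested chemokine and cytokine genes were lower in both Cx3cr1-/- brains without overlap, a share of members close to the 23.9% of all genes. Among checkpoint and other immune ligand genes, with a median of -0.05 over 16 tested, Lgals9 had 28.7 and 31.4 CPM in Cx3cr1-/- brains and 19.99 and 16.4 CPM in Cx3cr1+/- brains, and Nectin2 had 14.4 and 18.3 CPM in Cx3cr1-/- brains and 19.99 and 30.6 CPM in Cx3cr1+/- brains. Mmp9, a matrix protease, had 11.01 and 9.75 CPM in Cx3cr1-/- brains and 12.1 and 26.2 CPM in Cx3cr1+/- brains.

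The other lists had medians between -0.10, for the brain metastasis mediators, and 0.13, apart from Cd74 as the only class II gene tested. In cells of at least 20000 raw UMIs the median of the brain metastasis mediators was 0.04, and that of the immediate early genes was 0.12, beside -0.06 over all cells. The mesenchymal list (median 0.04) included S100a4, a calcium-binding protein linked to motility, with 866 and 846 CPM in Cx3cr1-/- brains and 667 and 697 CPM in Cx3cr1+/- brains (adjusted p = 0.787). Of the growth factor receptors 12 of 15 were positive (median 0.13), among them Pdgfrb, with 24.1 and 27.9 CPM in Cx3cr1-/- brains and 18.3 and 15.3 CPM in Cx3cr1+/- brains, and Notch1, with 33.3 and 38.7 CPM in Cx3cr1-/- brains and 27.6 and 21.5 CPM in Cx3cr1+/- brains. Srxn1, an Nrf2 target that repairs peroxiredoxins, had 50.8 and 47.6 CPM in Cx3cr1-/- brains and 62.7 and 76.9 CPM in Cx3cr1+/- brains, and Me1, malic enzyme, had 20.8 and 19.7 CPM in Cx3cr1-/- brains and 30.3 and 27.3 CPM in Cx3cr1+/- brains. Junb, an immediate early gene, had 73.8 and 82.4 CPM in Cx3cr1-/- brains and 99.6 and 107 CPM in Cx3cr1+/- brains, and the chaperone gene Dnajb1 had 48.5 and 57.4 CPM in Cx3cr1-/- brains and 42.4 and 31.7 CPM in Cx3cr1+/- brains. Of 24 genes of the unfolded protein response 11 were positive and 13 negative, with Dnajc3 at 50.9 and 54.6 CPM in Cx3cr1-/- brains and 75.8 and 61.9 CPM in Cx3cr1+/- brains. Tnc, the matrix protein tenascin C, had 5.28 and 5.85 CPM in Cx3cr1-/- brains and 8.62 and 22.6 CPM in Cx3cr1+/- brains. Hmga2, an architectural chromatin factor of the germline and developmental list, had 65.8 and 57.1 CPM in Cx3cr1-/- brains and 91.3 and 58.7 CPM in Cx3cr1+/- brains, and Myc had 238 and 223 CPM in Cx3cr1-/- brains and 210 and 189 CPM in Cx3cr1+/- brains. None of the genes named here passed the adjusted threshold.

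Cell-to-cell variation was described by single genes. The 10 genes that varied most between cells for their mean, over all 2732 cells and among genes above 100 CPM, were Tmsb4x, Ifit1, Cryab, Gm42418, Ccl2, Nfkbia, Isg15, Neat1, Adm and AC160336.1. In the cells of at least 20000 raw UMIs, Tmsb4x left this group and Hist1h1b, a histone made in S phase, entered it. The excess squared coefficient of variation (variance beyond counting error over the squared mean) was 16.3 for Ifit1, 11.8 for the small heat shock protein gene Cryab and 8.69 for Ccl2 in those cells, against a median of -0.04 over 1553 genes.

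Ifit1, an RNA-binding antiviral protein, had a UMI in 20.7 and 23.99% of these cells in Cx3cr1-/- brains, against 12.9 and 15.7% in Cx3cr1+/- brains. When each cell was thinned to 9000 corrected UMIs, the shares were 18.96 and 21.5% in Cx3cr1-/- brains and 11.2 and 13.8% in Cx3cr1+/- brains, with no cell left out. The 10% of cells with the most Ifit1 held 87.3 and 88.1% of its UMIs in Cx3cr1-/- brains and 97.9 and 92.5% in Cx3cr1+/- brains. For Krt8 the same 10% held 22.3 and 20.2% in Cx3cr1-/- brains and 23.96 and 18.1% in Cx3cr1+/- brains. Ifit1 UMIs were thus held by a minority of cells, whereas Krt8 was spread over nearly all of them.

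Ccl2 was present in 36.01 and 27.1% of the cells of at least 20000 raw UMIs in Cx3cr1-/- brains, against 29.9 and 54.8% in Cx3cr1+/- brains, and Nfkbia, the inhibitor induced by NF-kappa B, in 42.4 and 45.0% in Cx3cr1-/- brains and 41.1 and 51.9% in Cx3cr1+/- brains. Isg15 was present in 39.8 and 50.3% of those cells in Cx3cr1-/- brains, against 23.7 and 31.9% in Cx3cr1+/- brains. Oas1a was present in 29.3 and 34.4% in Cx3cr1-/- brains, against 12.1 and 16.7% in Cx3cr1+/- brains. Cxcl10 was rarer, with 3.40 and 3.25% of cells in Cx3cr1-/- brains and 3.57 and 7.62% in Cx3cr1+/- brains, and single cells reached 161 corrected UMIs of it. Top2a, a topoisomerase of dividing cells, was present in 57.7 and 58.0% of cells in Cx3cr1-/- brains and in 64.3 and 78.1% in Cx3cr1+/- brains.

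The summed interferon list per cell had a median of 3002 and 3990 CPM in Cx3cr1-/- brains, against 1453 and 2336 CPM in Cx3cr1+/- brains. The 10th percentile was 966 and 1217 CPM in Cx3cr1-/- brains and 495 and 866 CPM in Cx3cr1+/- brains. The 90th percentile was 9730 and 10825 CPM in Cx3cr1-/- brains and 7736 and 9654 CPM in Cx3cr1+/- brains. The genotypes were farther apart, as a ratio, in the middle of the distribution than at its upper end, and cells within a brain spanned 8.90-fold to 15.6-fold between the 10th and 90th percentiles. Cells with more interferon-stimulated RNA also had more class I presentation RNA, with Spearman's rho of 0.74 and 0.74 in Cx3cr1-/- brains and 0.73 and 0.77 in Cx3cr1+/- brains (1619 and 646 cells, and 224 and 210 cells). These correlations describe cells that share a library, and the 2 lists both depend on the depth correction. Against the glycolysis and hypoxia list rho was 0.11 and 0.08 in Cx3cr1-/- brains and 0.15 and 0.16 in Cx3cr1+/- brains.

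**Figure D5:**
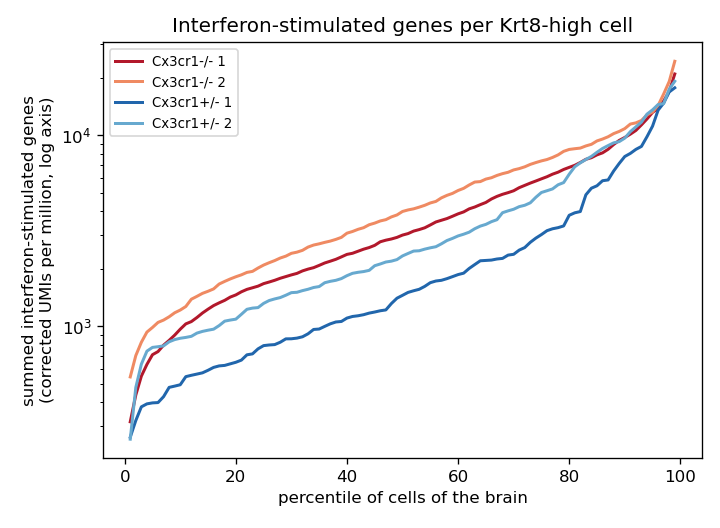
Summed level (CPM) of the interferon-stimulated genes in single Krt8-high cells of at least 20000 raw UMIs, by percentile of the cells of each brain (log axis, percentiles 1 to 99). At the 50th percentile the Cx3cr1-/- brains are at 3002 and 3990 and the Cx3cr1+/- brains at 1453 and 2336, and the 4 curves come closer together at the upper end.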

How the data were processed

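RNA, antibody tags and hashtags were measured in 1 pool of 8 brains as 3 libraries. Per the submitters' processing notes, Cell Ranger 3.1, Seurat 3.1.1 and the mm10 build were used. The deposited metadata give raw UMI counts per cell for RNA, antibody and hashtag libraries, and the authors' hashtag margin, a score for the lead of the first hashtag over the second. The deposited RNA values are the natural log of 1 plus a depth-corrected UMI count, which came out whole (tolerance 1e-06) for 100% of values. The metastasis and naive tables were corrected separately and were not compared in expression. All deposited cells carry the authors' singlet label, and no other doublet call was made. The 189 barcodes of the cluster that occur in both tables (1138 over all clusters) were left out.

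Corrected UMIs were summed per brain and scaled to CPM. Genes with a mean above 10 CPM were tested as log2(CPM + 10) with limma 3.58.1 (lmFit, eBayes with a trend, R 4.3.3) and Benjamini-Hochberg adjustment over all genes tested, and every adjusted p given comes from such a fit. A corrected 0 can hide raw UMIs, so low levels are less certain than the raw depth of 1028 to 333720 UMIs per cell would give. Shares and medians per brain were compared by exact permutation. Brains are separate animals marked by hashtag, and 2 per genotype limit every test. The procedure was tested on simulated data with noise drawn independently for each gene. Such data hold no single cells of high counts and no correlation between genes, so they cannot show how the test treats those. Named genes were the given markers, the 10 with the smallest p because under 5 passed, the 2 of each list with the smallest p, and the 20 leading genes of the cluster. Other named genes were chosen after their values were seen. The members and the gene lists were chosen with earlier results of these data known. Sequences come from the deposited hashtag labels and RefSeq (GRCm38.p6). Cluster names such as T-like were given from marker genes. Alternatives covered the pseudocount, level filter, scaling, depth, shared barcodes, joined clusters and each brain left out.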

Additional observations from a re-analysis of the deposited data

Results flagged for a closer look

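Krt8-high cells also occurred in the naive table, from brains that received no tumour cells. They made up 136 of 2736 naive cells used, or 4.97% (95% Wilson interval 4.22 to 5.85), after shared barcodes were removed. By brain the share was 3.26 and 6.63% in naive Cx3cr1-/- brains and 4.60 and 3.91% in naive Cx3cr1+/- brains. These cells had a median of 50.5 hashtag UMIs, against 119.5 in the naive microglia-like cluster, and a median hashtag margin of 1.64, against 2.98. A further 266 cells of the naive Krt8-high cluster had barcodes that are also in the metastasis table. For the 189 shared barcodes of the metastasis cluster, the hashtags of the metastasis-bearing brains had a median of 604 UMIs and those of the naive brains had a median of 35 UMIs. The part of hashtag assignment in the naive share was not tested.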

How the results depend on the processing

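Over all cells 2 genes were called. The count was 1 among genes with a mean above 50 CPM and 1 with all deposited cells. It was 0 with the mean of the authors' natural log values (516 at an unadjusted limma p under 0.05), 0 in cells of 50000 to 150000 raw UMIs (489), 0 in cells without a UMI of 5 leukocyte genes (496), 0 when clusters of median Krt8 above 0 were joined (1985), and 0 in cells of at least 20000 raw UMIs (506), an alternative chosen after seeing the data. The 6 joined clusters included leukocytes, with Ptprc at a mean of 1400 CPM in cluster 4 and 823 CPM in cluster 7. Leaving out 1 brain in turn gave 12 to 2024 calls. The cause was not tested. The difference in share was 29.5 to 43.0 percentage points when a brain was left out. Its direction could not change in those 4 fits, because the groups did not overlap. The difference was 38.99 points without the clusters of few UMIs in the denominator and 34.2 with all deposited cells. Among the list medians 116 of 144 alternative values moved by less than the SD between brains of the same genotype. No value that was called reversed. The class II list had no tested gene, and so no value, in 3 settings. No paired analysis was possible because the labels give the brains no replicate numbers, and the numbers 1 and 2 used here only name the brains within a genotype.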
